A study of Homo sapiens with 8 samples.

Results

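The 10 genes described here control the passage of cells through the G1 phase into DNA synthesis. They are the D cyclins CCND1, CCND2 and CCND3, the kinases CDK4 and CDK2, the kinase inhibitors CDKN2A, CDKN2B, CDKN2C and CDKN1B, and the retinoblastoma gene RB1. They were taken by name. A gene was measured by the probe sets, groups of short array probes, whose annotation gives its symbol alone, and the probe set with the highest mean over the 8 arrays stood for the gene. By this rule 9 of the 10 genes had 20 probe sets among the 54675 of the array. CDKN2C was not analysed here. Of the 9 genes 8 were bright enough to be tested, among 14180 tested genes of 19775 with a probe set.

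The arrays hold total RNA of sublines of KYSE180 and KYSE30, established human esophageal squamous cell carcinoma lines. Both lines went through 4 rounds of selection on transwell membranes, which are porous filters that motile cells cross. The D groups, 180D and 30D, are sublines that crossed the membrane, and the U groups, 180U and 30U, are sublines that did not. Each group has 2 arrays. Sublines were cultured over 2 passages between harvest and lysis. There were 4 independent parental populations, and each gave 1 D and 1 U subline. The labels name no drug treatment or engineered allele for any group. The comparisons ask whether the transcripts of the G1 machinery differ between more and less motile cells of a line and between the lines.

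D cyclins bind and activate CDK4 and CDK6 in response to growth factors and adhesion. These kinases phosphorylate the RB1 protein, which otherwise holds E2F transcription factors inactive, and CDK2 with cyclin E or A completes the phosphorylation. The INK4 inhibitors, encoded by CDKN2A, CDKN2B and CDKN2C, bind CDK4 and CDK6, whereas the product of CDKN1B, p27, restrains CDK2 complexes. In squamous carcinomas of the esophagus, amplification of 11q13 with CCND1 and deletion or silencing of CDKN2A on 9p21 are frequent. All of these proteins are also regulated by phosphorylation, binding and degradation, which arrays of RNA do not measure.

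Among these genes, the transcripts that set the lines furthest apart were those of the neighbouring genes CDKN2B and CDKN2A, so the 250 bases before their annotated transcription starts are shown. CDKN2A has separate starts for the transcripts of ARF, which acts on the p53 pathway, and of p16, the kinase inhibitor. The RefSeq promoter table on GRCh38.p14 matched 7 of the 10 genes by symbol. Its sequences are written 5′ to 3′ along the transcribed strand, and capitals mark the GC box, GGGCGG on either strand.
CDKN2B, chr9:22009306-22009555, minus strand: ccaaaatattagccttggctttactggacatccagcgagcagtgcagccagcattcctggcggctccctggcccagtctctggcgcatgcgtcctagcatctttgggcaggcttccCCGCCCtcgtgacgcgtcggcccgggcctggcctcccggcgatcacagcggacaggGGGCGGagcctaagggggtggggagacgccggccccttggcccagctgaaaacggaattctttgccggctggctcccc
CDKN2A upstream start, chr9:21995325-21995574, minus strand: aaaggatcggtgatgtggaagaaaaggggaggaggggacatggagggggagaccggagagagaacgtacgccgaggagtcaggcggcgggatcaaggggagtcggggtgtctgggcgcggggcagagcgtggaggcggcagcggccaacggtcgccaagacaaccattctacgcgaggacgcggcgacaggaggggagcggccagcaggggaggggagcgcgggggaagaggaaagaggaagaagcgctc
CDKN2A downstream start, chr9:21974858-21975107, minus strand: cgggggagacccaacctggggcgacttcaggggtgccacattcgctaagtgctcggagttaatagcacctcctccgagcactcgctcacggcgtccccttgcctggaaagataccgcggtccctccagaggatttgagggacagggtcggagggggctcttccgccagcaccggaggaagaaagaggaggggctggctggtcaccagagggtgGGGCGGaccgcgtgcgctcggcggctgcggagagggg
The CDKN2B window holds 2 GC boxes and 18 CG dinucleotides. The upstream CDKN2A window holds 0 GC boxes and 24 CG dinucleotides, and the downstream one holds 1 and 20. Of 35116 windows of the same length from the RefSeq table, 42.6% hold a GC box, and the median number of CG dinucleotides is 11. None of the 3 windows held the letters TTTCCCGC, TTTGGCGC or TTTCGCGC on either strand, forms of the E2F motif that 2.32% of all windows hold. The arrays do not measure methylation or binding at these windows.

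Levels are log2 values normalized by the authors. Group values are means ± SD of 2 arrays, differences are log2 differences ± SE of the fit, and a difference was called where the limma adjusted p was under 0.05, with adjustment over all 14180 genes. The correlation between arrays was 0.997 to 0.998 within a group and 0.860 to 0.869 across the lines. Controls set 180D replicate 1 apart from the rest, with a 3′ minus 5′ difference of ACTB of 1.92 against 1.06 to 1.42 on the other arrays, and an 18S rRNA signal of 11.47 against 12.35 to 12.54. Of 10 squamous epithelial markers 7 were measured, and 7 lay above the filter value of 4.46 in KYSE180 against 6 in KYSE30. The keratin KRT14 read 13.34 to 13.64 in KYSE180 and 3.45 to 4.27, below the filter value, in KYSE30. KRT5, its partner in basal cells, read 12.17 to 12.36 in KYSE180 and 4.48 to 4.84 in KYSE30. The summed linear signal of the squamous markers was 26800 to 31600 in KYSE180 and 6720 to 7860 in KYSE30. For fibroblast markers it was 252 to 364 in KYSE180 and 197 to 230 in KYSE30, for immune markers 70.3 to 79.3 in KYSE180 and 63.0 to 71.8 in KYSE30, and for endothelial markers 130 to 143 in KYSE180 and 139 to 157 in KYSE30.

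Among the D cyclins, CCND1, the cyclin D1 gene, was higher in 30D than in 30U. CCND1 read 10.73 and 10.67 on the 30D arrays, against 10.32 and 10.28 on the 30U arrays. Both 30D arrays lay above both 30U arrays, with means of 10.70 ± 0.04 in 30D and 10.30 ± 0.03 in 30U. The difference was 0.40 ± 0.05 (1.32-fold, limma adjusted p = 0.00332), and it remained called without each of the 8 arrays in turn, with adjusted p of 0.00625 to 0.0354. A second CCND1 probe set, which read 10.52 and 10.46 in 30D against 10.15 and 9.96 in 30U, gave 0.43 ± 0.08 (limma adjusted p = 0.0173). In arrays of whole cultures, more cells with the transcript and more transcript in each cell cannot be told apart, nor can the same for a lower level.

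In KYSE180 the same gene read 10.52 and 10.50 in 180D, against 10.58 and 10.57 in 180U. These values lie close together, with the 180D arrays slightly the lower, and the difference of -0.07 ± 0.05 was not called (limma adjusted p = 0.534). The D minus U difference of CCND1 itself differed between the lines, by -0.46 ± 0.07 in KYSE180 relative to KYSE30 (limma adjusted p = 0.00888), and by -0.53 ± 0.11 with the second probe set (limma adjusted p = 0.0337). Over the 8 fits without 1 array the adjusted p of the difference between lines ran from 0.0219 to 0.0482. Over all 4 groups the order of the CCND1 levels was 30D, 180U, 180D and 30U, and no group overlapped another. Averaged over the fractions the lines did not differ in CCND1 past the threshold (0.04 ± 0.09, limma adjusted p = 0.713).

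CCND3, the cyclin D3 gene, read 9.71 and 9.50 in 180D and 9.52 and 9.55 in 180U. Its levels in KYSE30 were 9.08 and 9.11 in 30D and 8.88 and 8.82 in 30U. All 4 KYSE180 arrays lay above all 4 KYSE30 arrays, by 0.60 ± 0.06 on average (1.52-fold, limma adjusted p = 3.53e-05). The 30D arrays lay above the 30U arrays, but the difference of 0.24 ± 0.07 was not called (limma adjusted p = 0.067). Without either 180D array the adjusted p was 0.0223 and CCND3 was called, with the same difference. In 180D minus 180U the difference was 0.07 ± 0.07 (limma adjusted p = 0.661). The order of the levels was 180D, 180U, 30D and 30U, and the 180D and 180U arrays overlapped. A dimmer CCND3 probe set read 4.88 to 5.36 over the 8 arrays and differed in no comparison past the threshold. Its differences ran the other way between the lines (-0.17 ± 0.11, limma adjusted p = 0.232) and in 180D minus 180U (-0.07 ± 0.16, limma adjusted p = 0.857).

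CCND2, the cyclin D2 gene, was dim in every group and was not tested. Its brightest probe set read 4.09 and 3.62 in 180D, 3.99 and 3.74 in 180U, 3.97 and 4.16 in 30D, and 4.40 and 3.78 in 30U, all below the filter value. All groups overlapped, and the other 3 probe sets of the gene also lay below the filter value.

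**Figure D1:**
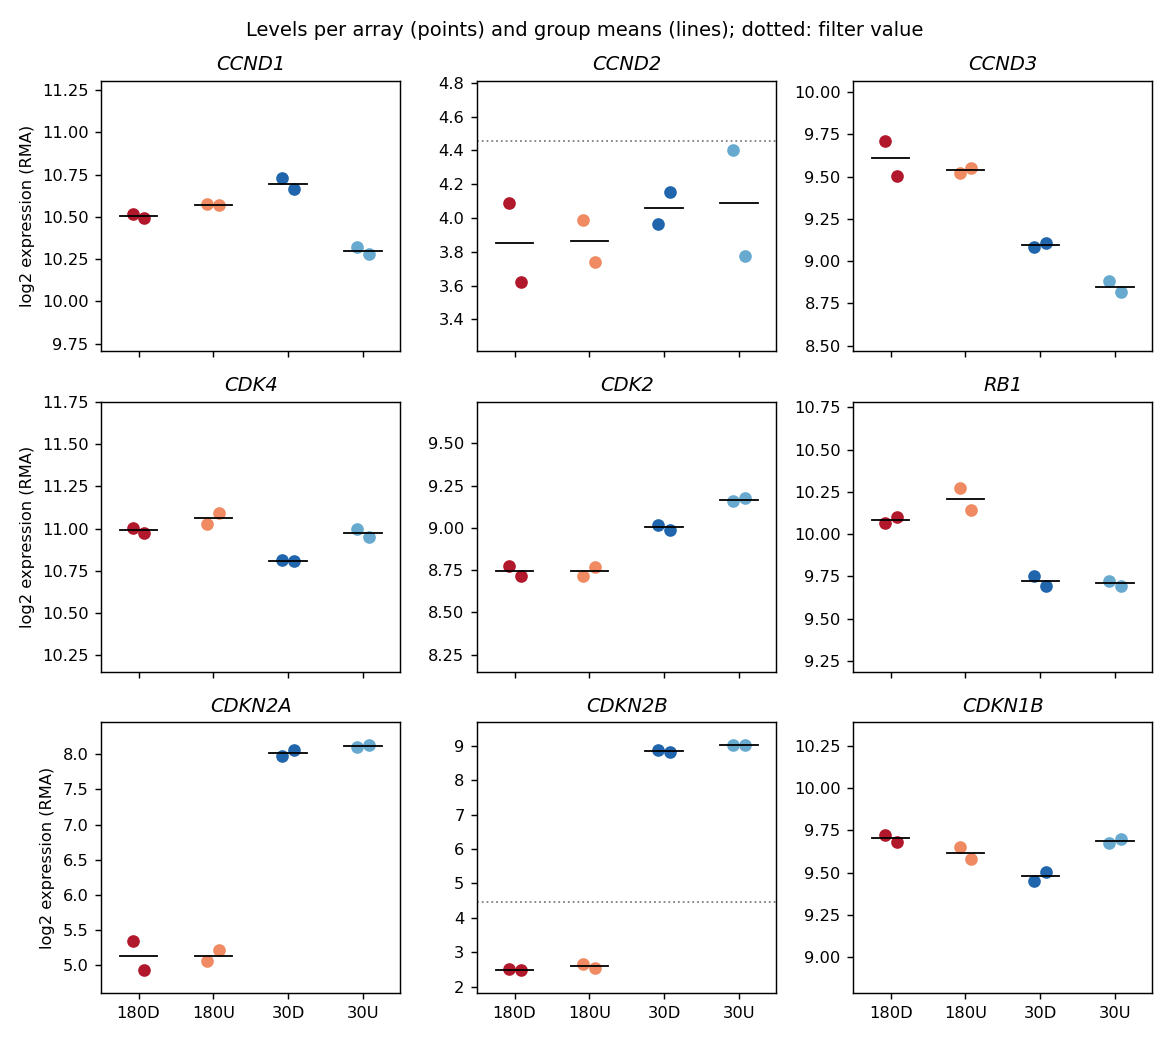
Log2 expression of the 9 measured genes on each array (points) with the mean of each group (lines), for 180D, 180U, 30D and 30U, with a scale of its own for each gene. The dotted line is the filter value of 4.46. CCND1 is highest in 30D and lowest in 30U, while CDKN2A and CDKN2B part KYSE180 from KYSE30.

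Both kinases read slightly lower in 30D than in 30U without passing the threshold. CDK4, the catalytic partner of the D cyclins, read 10.81 on both 30D arrays, against 10.999 and 10.95 in 30U, a difference of -0.17 ± 0.05 (limma adjusted p = 0.0745). CDK2, the partner of cyclins E and A, read 9.02 and 8.98 in 30D, against 9.16 and 9.17 in 30U, a difference of -0.16 ± 0.05 (limma adjusted p = 0.0769). For both genes the groups did not overlap in these probe sets, but the share of all tested genes without overlap was not counted. Both were called with the filter at the 60th percentile of all probe sets and with each array centred on its median. They were also called when the fit took account of signal intensity. A second, dimmer CDK2 probe set overlapped, with 7.29 and 7.06 in 30D against 7.24 and 7.23 in 30U. Its difference was -0.06 ± 0.13 (limma adjusted p = 0.817).

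In KYSE180, CDK4 read 11.01 and 10.98 in 180D and 11.03 and 11.09 in 180U, and CDK2 read 8.78 and 8.72 in 180D and 8.72 and 8.77 in 180U. The differences of -0.07 ± 0.05 and 0.00 ± 0.05 were not called (limma adjusted p = 0.531 and 0.98). Between the lines, CDK2 was lower in KYSE180 by 0.34 on the log2 scale (SE 0.05, limma adjusted p = 0.000371), with 8.74 ± 0.03 in KYSE180 and 9.08 ± 0.10 in KYSE30 (SD, n = 4 each). The second CDK2 probe set differed by -0.32 ± 0.09 (limma adjusted p = 0.0119). CDK4 was higher in KYSE180 by 0.13 ± 0.05 (limma adjusted p = 0.029), with 11.03 ± 0.05 in KYSE180 and 10.89 ± 0.10 in KYSE30 (SD, n = 4 each). That call was lost in 6 of the 8 fits without 1 array, with adjusted p up to 0.0845 (0.0643 without 180D replicate 1), and without the filter (0.0517).

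RB1, the substrate of these kinases, read 10.07 and 10.10 in 180D and 10.27 and 10.14 in 180U, and 9.75 and 9.69 in 30D and 9.72 and 9.69 in 30U. The KYSE180 arrays were all higher than the KYSE30 arrays, by 0.43 ± 0.05 (1.35-fold, limma adjusted p = 0.000102), and a second, dimmer probe set gave 0.35 ± 0.09 (limma adjusted p = 0.00801). Within the lines RB1 differed by -0.12 ± 0.06 in 180D minus 180U (limma adjusted p = 0.335) and by 0.02 ± 0.06 in 30D minus 30U (limma adjusted p = 0.901), neither of them called. The second probe set gave -0.15 ± 0.13 and -0.13 ± 0.13 in the same order (limma adjusted p = 0.608 and 0.576).

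CDKN2B, which encodes the inhibitor p15, had the largest difference between the lines among the measured genes of the group. Its levels were 2.52 and 2.48 in 180D and 2.65 and 2.54 in 180U, all below the filter value, and 8.88 and 8.81 in 30D and 9.02 and 9.01 in 30U. The fitted difference was -6.38 ± 0.05 in KYSE180 relative to KYSE30. Measured from the filter value, which stands in for background and was chosen for this purpose after the data were seen, CDKN2B was at least 22.2-fold lower in KYSE180. This probe set passed the filter only through its KYSE30 arrays and had to differ between the lines, so no test is given. A second CDKN2B probe set, which read 4.44 and 4.63 in 180D and 4.51 and 4.62 in 180U, against 5.29 and 5.19 in 30D and 5.10 and 5.11 in 30U, gave a smaller difference of -0.62 ± 0.07 (limma adjusted p = 3.90e-05). Both probe sets gave the same direction, but their sizes differ widely.

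CDKN2A, its neighbour, read 5.34 and 4.93 in 180D and 5.07 and 5.21 in 180U, and 7.98 and 8.06 in 30D and 8.11 and 8.13 in 30U. Every KYSE180 array was lower than every KYSE30 array, and the difference was -2.93 ± 0.09 (7.63-fold, limma adjusted p = 2.06e-08). A second probe set read 2.84 to 3.11 over the KYSE180 arrays and 6.95 to 7.03 over the KYSE30 arrays. It passed the filter only through KYSE30 and had to differ, so no test is given for it. Its KYSE180 level was below the filter value and at least 5.74-fold lower than in KYSE30, counting KYSE180 at the filter value. The third CDKN2A probe set did not follow, with 4.82 and 4.88 in 180D, 5.08 and 4.96 in 180U, 4.93 and 4.80 in 30D and 4.76 and 5.08 in 30U, and a difference of 0.04 ± 0.08 (limma adjusted p = 0.676). The annotation used here does not tie the probe sets to the p16 or the ARF transcript.

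Neither INK4 gene was called between D and U. CDKN2A differed by -0.00 ± 0.13 in 180D minus 180U and by -0.10 ± 0.13 in 30D minus 30U (limma adjusted p = 0.995 and 0.661). CDKN2B differed by -0.09 ± 0.06 and -0.17 ± 0.06 in the same comparisons (limma adjusted p = 0.441 and 0.095), and in KYSE180 both groups lay below the filter value. The second CDKN2B probe set ran the other way in 30D minus 30U, at 0.13 ± 0.08 (limma adjusted p = 0.34).

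CDKN1B, the p27 gene, was lower in 30D, with 9.45 and 9.50 against 9.67 and 9.70 in 30U. Both 30D arrays lay under both 30U arrays, and CDKN1B fell by 0.21 on the log2 scale (SE 0.05, 1.16-fold, limma adjusted p = 0.0386). The call was lost without any 1 of the 4 KYSE30 arrays, with adjusted p up to 0.203, without the filter on dim probe sets (0.0807), with every probe set tested (0.064), and in the fit with the parental population as a block (limma adjusted p = 0.0893). In KYSE180 the values ran the other way, 9.72 and 9.68 in 180D against 9.65 and 9.58 in 180U, and the difference of 0.09 ± 0.05 was not called (limma adjusted p = 0.433). The difference between the lines in this change was 0.30 ± 0.08 (limma adjusted p = 0.0474), and it was not called in any of the 8 fits without 1 array (adjusted p of 0.0566 to 0.168) or with the block (adjusted p = 0.106). The 180D and 30U levels, the highest of the 4 groups, overlapped, and 30D was the lowest. Between the lines CDKN1B differed by 0.08 ± 0.07 (limma adjusted p = 0.349).

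Of the 8 tested genes 1 was thus called higher and 1 lower in 30D, against 8.42% of all tested genes called higher and 8.12% called lower in that comparison. In 180D minus 180U none of the 8 was called by limma, against 2.55% of all tested genes called higher and 1.21% called lower. An unadjusted limma p under 0.05 was reached by 0 of the 8 in 180D minus 180U. In 30D minus 30U 6 reached it, 2 higher and 4 lower. No share of all tested genes was counted at the unadjusted threshold, here or for the lists below. The difference between the lines in the D minus U change was called for 2 of the 8, CDKN1B with the higher and CCND1 with the lower change in KYSE180, beside 6.94% and 5.21% of all tested genes. Between KYSE180 and KYSE30, CCND3, RB1 and CDK4 were higher and CDK2, CDKN2A and CDKN2B lower in KYSE180. Of all tested genes 36.1% were higher and 31% lower there. CDKN2B passed the filter only through KYSE30, so it had to differ and its call is no result. The median over the 8 genes was -0.13 in 30D minus 30U and -0.03 in 180D minus 180U, beside 0.01 and 0.02 over all tested genes.

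**Figure D2:**
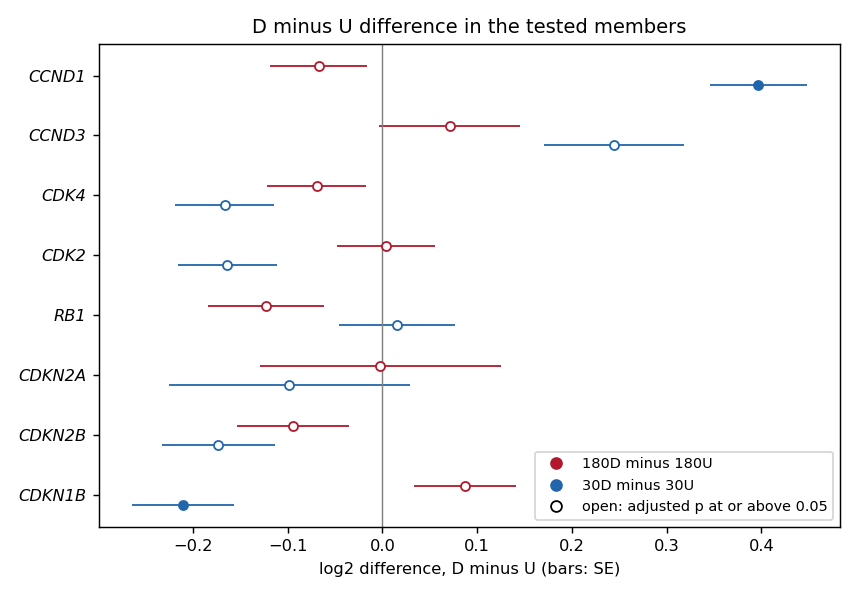
Log2 difference of D minus U for the 8 tested genes, in KYSE180 (red) and KYSE30 (blue), with bars for the SE of the fit. Filled points have an adjusted p under 0.05. CCND1 (0.40) and CDKN1B (-0.21) are the only filled points, both in KYSE30.

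The genes around CDKN2A and CDKN2B on 9p21 did not all share their difference between the lines. MTAP, the methylthioadenosine phosphorylase gene and the protein-coding gene next to CDKN2A, read 8.04 and 8.12 in 180D and 8.15 and 8.18 in 180U, against 7.52 and 7.64 in 30D and 7.47 and 7.56 in 30U. It was higher in KYSE180 by 0.57 ± 0.06 (limma adjusted p = 2.35e-05), although its next brightest probe set overlapped between the lines, with 7.60 to 8.01 in KYSE180 and 7.43 to 7.67 in KYSE30. FOCAD and MLLT3, further out on the same side, were also higher, by 0.54 ± 0.05 for FOCAD and 0.85 ± 0.06 for MLLT3, and KLHL9 was lower by 0.27 on the log2 scale.

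The interferon gene IFNE, which follows MTAP, and DMRTA1, on the other side of CDKN2B, lay below the filter value on average and were not tested. ELAVL2, an RNA-binding protein gene 2 protein-coding genes from CDKN2B, read 2.72 and 3.05 in 180D and 2.68 and 3.10 in 180U, against 8.32 and 8.14 in 30D and 8.40 and 8.18 in 30U. Its fitted difference was -5.37 ± 0.11, and in KYSE180 the level was at least 14-fold lower. ELAVL2 likewise passed the filter only through KYSE30 and had to differ, so no test is given for it. Of the 5 tested neighbours 3 were thus higher and 2 lower in KYSE180, where 36.1% of all tested genes were higher and 31% lower. ELAVL2, among the lower, had to differ. MLLT3 was also the 1 neighbour called between D and U, beside 8.12% of all tested genes called lower in 30D. It read 6.26 and 6.19 in 30D against 6.73 and 6.66 in 30U (-0.47 ± 0.06, limma adjusted p = 0.00307). DNA copy number was not measured on these arrays, and its part in these levels was not tested.

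**Figure D3:**
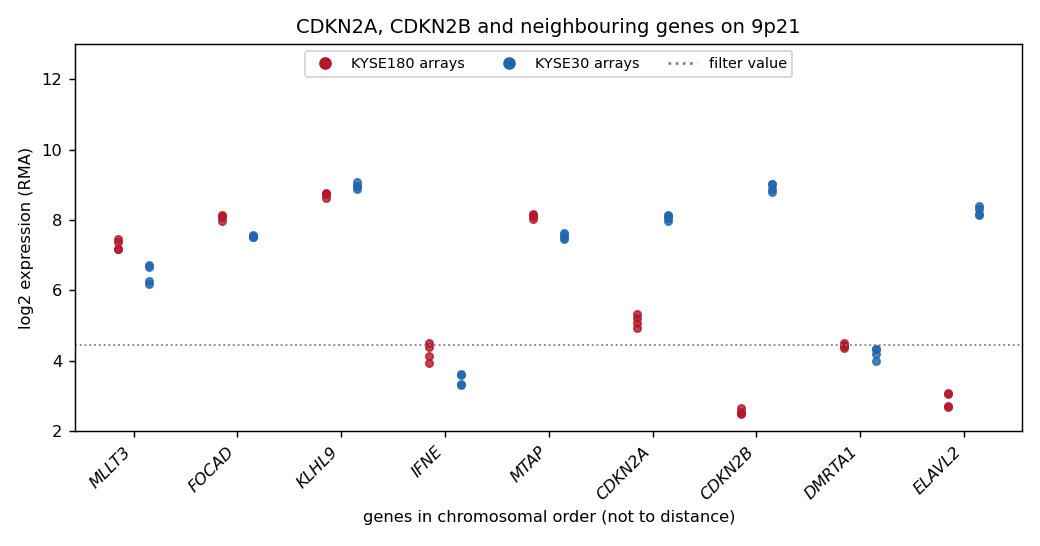
Log2 expression of CDKN2A, CDKN2B and neighbouring genes of 9p21 in chromosomal order, with 4 KYSE180 arrays (red) and 4 KYSE30 arrays (blue) a gene and the filter value dotted. CDKN2A, CDKN2B and ELAVL2 are far lower in KYSE180, while MTAP is 0.57 higher there.

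On 11q13, the neighbours of CCND1 were also read. Of 9 tested genes 2 were higher and 1 lower in 30D, beside 8.42% and 8.12% of all tested genes. None was called by limma in 180D minus 180U, where 2.55% of all tested genes were called higher and 1.21% lower. An unadjusted limma p under 0.05 was reached by 0 of the 9 in 180D minus 180U. In 30D minus 30U 5 reached it, 4 higher and 1 lower. MYEOV, the protein-coding gene next to CCND1, read 7.40 and 7.54 in 30D against 6.74 and 7.02 in 30U, a difference of 0.59 ± 0.11 (limma adjusted p = 0.0123). Its call was lost without 30D replicate 2 or 30U replicate 1, with adjusted p up to 0.0763. LTO1, on the other side of CCND1, read 7.39 and 7.32 in 30D against 7.03 and 7.01 in 30U (0.33 ± 0.06, limma adjusted p = 0.0146), and its call was lost without any 1 of the KYSE30 arrays (adjusted p up to 0.0979). A second LTO1 probe set ran the other way, with 5.69 and 5.68 in 30D against 5.90 and 5.81 in 30U. ANO1, a calcium-activated chloride channel gene further along, was lower in 30D, with 7.37 and 7.35 against 7.91 and 7.95 in 30U (-0.57 ± 0.08, limma adjusted p = 0.00362). A dimmer ANO1 probe set was lower in D in both lines. It read 5.54 and 5.64 in 30D against 5.82 and 5.81 in 30U, and 5.64 and 5.89 in 180D against 6.03 and 5.98 in 180U.

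FADD, an adaptor of death receptors, PPFIA1, and CTTN, which encodes the actin-binding protein cortactin, are bright 11q13 genes. By their brightest probe sets they were not called in either D minus U comparison, with differences between -0.03 and 0.15. The next brightest CTTN probe set was lower in 180D, with 9.34 and 9.54 against 9.74 and 9.82 in 180U. Another was also lower, with 9.35 and 9.60 in 180D against 9.88 and 10.02 in 180U, while a dimmer one overlapped. Between the lines all 9 tested neighbours were called, 3 higher and 6 lower in KYSE180, where 36.1% of all tested genes were higher and 31% lower, while CCND1 was not called. The ANO1 call (0.28, limma adjusted p = 0.0458) was lost in 5 of the 8 fits without 1 array, with adjusted p up to 0.125. FGF4, lower by 0.28 on the log2 scale, averaged 4.44 in KYSE180, below the filter value. It passed the filter only through KYSE30, so its call, counted among the 6 lower, is no result. CTTN was lower in KYSE180 by 0.92 on the log2 scale (SE 0.04), with 11.42 ± 0.05 in KYSE180 and 12.34 ± 0.03 in KYSE30 (SD, n = 4 each, limma adjusted p = 3e-07). The CTTN probe sets disagreed between the lines too, since 1 of them read 9.35 to 10.02 in KYSE180 and 9.36 to 9.61 in KYSE30. FADD was lower by 0.71 on the log2 scale and SHANK2 was lower by 1.76 on the log2 scale, whereas LTO1 was 0.72 ± 0.09 and TPCN2 0.55 ± 0.09 higher. The fibroblast growth factor genes FGF19 and FGF3 lay below the filter value.

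**Figure D4:**
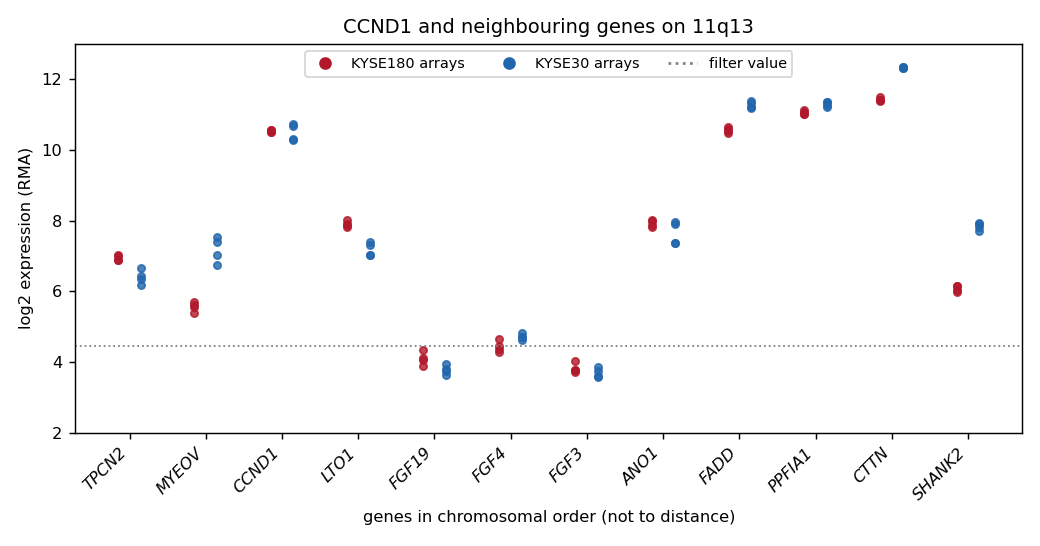
Log2 expression of CCND1 and neighbouring genes of 11q13 in chromosomal order, with 4 KYSE180 arrays (red) and 4 KYSE30 arrays (blue) a gene and the filter value dotted. The CCND1 values of the lines overlap, with a spread within KYSE30 that is the D minus U difference of 0.40, while CTTN, FADD and SHANK2 are lower in KYSE180.

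Around RB1 on 13q14, ITM2B, an integral membrane protein gene beside it, was higher in KYSE180 by 1.22 ± 0.05 and MED4, a subunit of the Mediator complex, by 0.25 ± 0.05. RCBTB2 was lower by 1.38 on the log2 scale. None of the 4 tested neighbours of RB1 was called by limma in 30D minus 30U or in 180D minus 180U. In either comparison 0 of them had an unadjusted p under 0.05. Of all tested genes 8.42% were called higher and 8.12% lower in 30D, and 2.55% higher and 1.21% lower in 180D.

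The 5 tested genes whose centred profile over the 8 arrays lay closest to that of CCND1, by Euclidean distance among 14179 genes, were GDA, ENTPD1-AS1, EHBP1, C19orf33 and IL6R. Their distances were 0.0936 to 0.134 on the log2 scale. GDA, guanine deaminase, was 0.41 higher in 30D, with a difference of -0.05 in 180D minus 180U, and IL6R, the interleukin-6 receptor gene, was 0.39 higher in 30D, with a difference of -0.03 in 180D minus 180U. These genes were picked for likeness to CCND1 on the same arrays, so their values are a description.

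The other regulators of the G1 to S transition were read from a list of 27 genes, all of them tested. In 30D 2 were higher and 5 lower, beside 8.42% and 8.12% of all tested genes. The median difference was -0.05 against 0.01 over all tested genes. CDKN1A, the p21 gene that p53 activates, had the largest difference of the list, with 9.02 and 8.90 in 30D against 9.85 and 9.97 in 30U. CDKN1A fell by 0.95 on the log2 scale (SE 0.07, 1.93-fold, limma adjusted p = 0.000299). SKP2, the ubiquitin ligase subunit that marks p27 for degradation, read 10.35 and 10.38 in 30D against 10.79 and 10.88 in 30U (-0.47 ± 0.06, limma adjusted p = 0.00295). RBL2, which encodes the RB1 relative p130, read 9.07 and 9.05 in 30D against 9.49 on both 30U arrays (-0.43 ± 0.05, limma adjusted p = 0.00328).

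E2F5, an E2F that works mainly as a repressor with p130, was higher in 30D, with 7.19 and 7.05 against 6.67 and 6.50 in 30U (0.54 ± 0.11, limma adjusted p = 0.0153). The other called genes were CCNH, the cyclin of the CDK-activating kinase, at 0.23 and, on the lower side, RBL1 at -0.23 and TFDP2 at -0.21, of which CCNH and RBL1 are named after their values were seen. The total of 7 called genes was 3 to 4 without any 1 of the KYSE30 arrays, and 4 with the parental population as a block. CDKN1A, SKP2 and RBL2 were called in all 8 fits without 1 array, and E2F5 was not called without 30D replicate 1, 30D replicate 2 or 30U replicate 2 (adjusted p up to 0.0949).

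In 180D minus 180U, 1 of the 27 regulators was called, beside 2.55% of all tested genes called higher and 1.21% lower. This was CDK6, the other kinase of the D cyclins. It read 10.62 and 10.52 in 180D against 10.17 and 10.23 in 180U (0.37 ± 0.06, limma adjusted p = 0.0195). In KYSE30 it read 10.47 on both 30D arrays against 10.40 and 10.45 in 30U, and was not called. A second bright CDK6 probe set read 9.52 and 9.53 in 180D against 9.23 and 9.25 in 180U, while a dimmer one read 6.20 and 6.40 in 180D against 6.41 and 6.43 in 180U. The KYSE180 call was lost without 180D replicate 1 (0.32, adjusted p = 0.0854), 180D replicate 1 being the array with the unusual controls, without 4 of the other arrays, and in the fit with parental populations as blocks (adjusted p = 0.0585). COL1A1, a collagen gene on the list of fibroblast markers, was also higher in 180D, with 7.99 and 7.68 against 7.32 and 7.19 in 180U (0.58 ± 0.11, limma adjusted p = 0.035). This call held in 1 of the 8 fits without 1 array, and was lost without 180D replicate 1 (0.43, adjusted p = 0.11) and with the block (adjusted p = 0.108). The next brightest COL1A1 probe set overlapped, with 6.72 and 6.67 in 180D against 6.65 and 6.89 in 180U. Of the dimmer ones above the filter value, 1 overlapped and 1 was higher in 180D, with 5.503 and 5.52 against 5.065 and 4.998 in 180U. COL1A2 was below the filter value on all 8 arrays. The part of such cells or of array quality in the CDK6 difference was not tested. CDKN1A read 7.13 and 7.09 in 180D against 7.19 on both 180U arrays, and was not called there.

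Between the lines 13 of the 27 regulators were higher and 8 lower in KYSE180, with a median of 0.09 against 0.05 over all tested genes. Of all tested genes 36.1% were higher and 31% lower. CCNE1, the cyclin E1 gene, was higher by 1.14 ± 0.05 (2.21-fold, limma adjusted p = 1.81e-07), with 8.91 ± 0.07 in KYSE180 and 7.76 ± 0.04 in KYSE30 (SD, n = 4 each). The E2F partners TFDP1 and TFDP2 were higher by 0.98 ± 0.06 and 0.83 ± 0.05. FBXO4, an F-box protein, was lower by 2.07 on the log2 scale (4.19-fold, limma adjusted p = 5.42e-08). CDKN1A was lower by 2.28 on the log2 scale (4.87-fold, limma adjusted p = 2.86e-06).

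Genes that E2F factors are known to drive at the start of DNA synthesis were lower in 30D. Of 20 tested of 21 listed, 17 were lower and 0 higher in 30D, beside 8.12% and 8.42% of all tested genes. The median difference was -0.33 against 0.01 over all tested genes. MCM7, a subunit of the replicative helicase, read 9.81 and 9.75 in 30D against 10.27 on both 30U arrays (-0.49 ± 0.06, limma adjusted p = 0.00253). TYMS, thymidylate synthase, read 11.87 and 11.85 in 30D against 12.31 and 12.33 in 30U (-0.46 ± 0.05, limma adjusted p = 0.00185). CDC45 and GINS2, which act with the helicase, differed by -0.47 ± 0.05 and -0.41 ± 0.05. These 4 genes were named for the smallest p of the list in this comparison, so that their groups did not overlap adds nothing. Each of the 4 remained called without any 1 array. For the whole list 17 called genes became 7 to 8 without any 1 of the KYSE30 arrays, and 12 with the parental population as a block.

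In 180D minus 180U none of the 20 was called by limma, beside 2.55% of all tested genes called higher and 1.21% lower. In 30D minus 30U 19 of the 20 had an unadjusted limma p under 0.05, all of them lower. In 180D minus 180U 4 had one, 2 higher and 2 lower, and the median was -0.01 against 0.02 over all tested genes. With an intensity trend in the limma fit 3 of the 20 passed there, 1 higher and 2 lower in 180D. MCM7 read 11.32 and 11.21 in 180D against 11.12 and 11.11 in 180U (0.15 ± 0.06, limma adjusted p = 0.211). The change differed between the lines for 9 of the 20 genes, all with the higher change in KYSE180, for 3 to 4 of the 20 without any 1 of the KYSE30 arrays, and for 6 of the 20 with the block. Of all tested genes 6.94% were called with the higher change in KYSE180 and 5.21% with the lower. Between the lines 14 of the 20 were higher and 2 lower in KYSE180, with a median of 0.55 against 0.05 over all tested genes. Of all tested genes 36.1% were higher and 31% lower between the lines. MCM2, another helicase subunit, was higher by 1.24 ± 0.08 and RRM2, the ribonucleotide reductase subunit, by 0.88 ± 0.05. The growth rate and the cell cycle distribution of the cultures were not measured on these arrays, and their part in these differences was not tested.

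**Figure D5:**
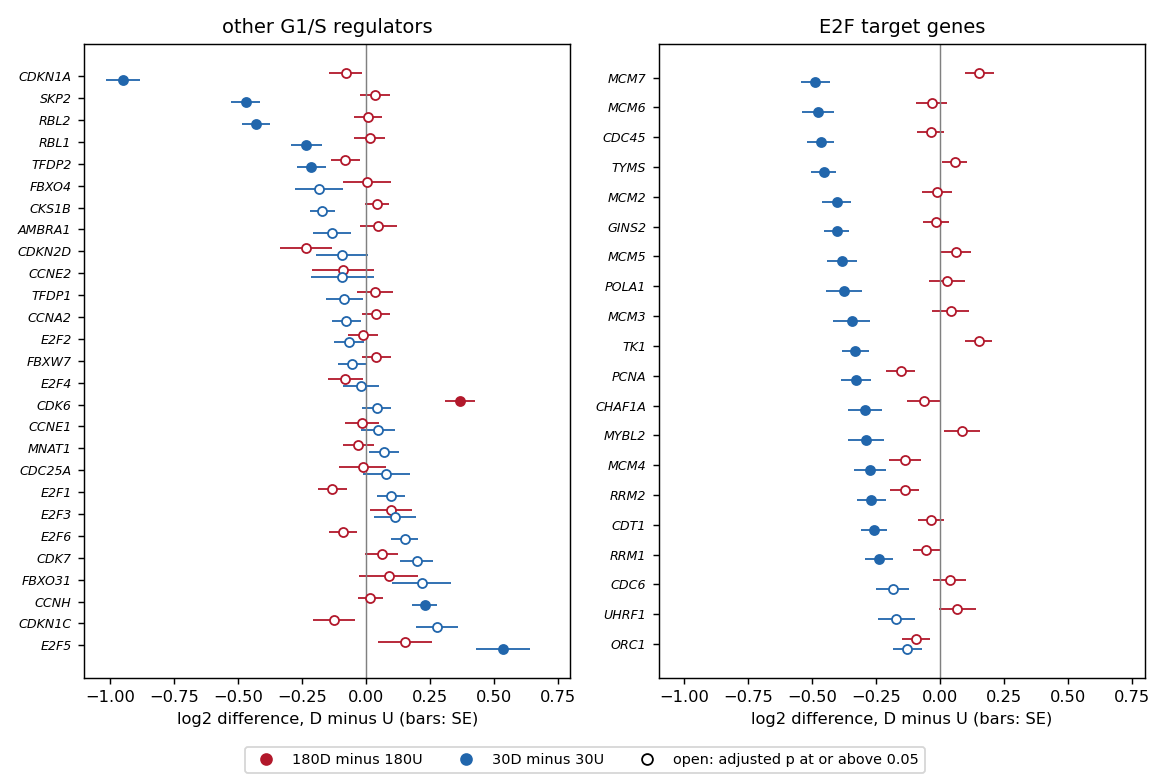
Log2 difference of D minus U in KYSE180 (red) and KYSE30 (blue) for 27 other regulators of the G1 to S transition (left) and 20 E2F target genes (right), ordered by the KYSE30 difference, with bars for the SE. Filled points have an adjusted p under 0.05. The KYSE30 values of the target genes all lie below 0, while the KYSE180 values lie on both sides of it.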

How the data were processed

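The 8 arrays were Affymetrix expression arrays of total RNA. The deposited values are log2 expression values that the authors made with RMA, per the submitters' processing notes, and they ran from 1.44 to 14.01. RMA aligns the distributions of the arrays, so a change in total RNA per cell is not seen, and differences of dim genes are compressed. Symbols came from the platform annotation and were updated through RefSeq. Probe sets with 1 symbol and a mean at or above the 40th percentile of all probe sets (4.46) were kept, 1 per gene. Tests used limma 3.58.1 in R 4.3.3 (lmFit and eBayes, two-sided, Benjamini-Hochberg over 14180 genes). A fit of 4 group means gave D minus U and its difference between the lines, and an additive fit of line and fraction gave KYSE180 minus KYSE30. The number of arrays limits the precision. The 4 arrays of a line are D and U sublines of shared parental populations, not 4 independent replicates. The p-values of KYSE180 minus KYSE30 measure spread among the arrays of these 2 lines, not among lines in general. The fits were tested on simulated data.

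The labels pair each D subline with a U subline of the same parental population, with crossed numbers in KYSE180. The deviations of paired arrays from their group means correlated at 0.0203 in KYSE180 and -0.0228 in KYSE30. The named genes are all members, up to 4 genes with the smallest p of each other list in a comparison, all tested neighbours and the 5 profiles closest to CCND1. Members and lists were chosen with earlier results of these data known. MicroRNA arrays of the same RNA were not used here.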

Additional observations from a re-analysis of the deposited data

Results flagged for a closer look

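The following genes were picked out because their D minus U difference itself differed between the lines (limma adjusted p under 0.05). Each value is the log2 difference in KYSE180 minus that in KYSE30. Among the measured G1 genes, it was -0.46 for CCND1 and 0.30 for CDKN1B. Among the other regulators it was 0.87 for CDKN1A, 0.51 for SKP2, 0.44 for RBL2 and 0.33 for CDK6. Among the named E2F target genes it was 0.64 for MCM7, 0.51 for TYMS, 0.48 for TK1, 0.43 for CDC45, 0.39 for GINS2 and 0.39 for MCM2. Among the neighbours of CCND1 it was 0.51 for ANO1 and -0.40 for LTO1. The dimmer ANO1 probe set did not share this, with means of 5.77 in 180D, 6.00 in 180U, 5.59 in 30D and 5.81 in 30U. Without each array in turn, CCND1, CDKN1A, SKP2, MCM7, TYMS and TK1 were called in all 8 fits, CDC45 in 5 of 8, RBL2 and GINS2 in 4 of 8, ANO1 and LTO1 in 2 of 8, and CDK6 and MCM2 in 1 of 8. CDKN1B was called in 0 of 8. With the parental population as a replicate block 6 of these 14 calls were lost, with adjusted p of 0.106 for CDKN1B, 0.0828 for LTO1, 0.0777 for ANO1, 0.0763 for CDK6, 0.0545 for GINS2 and 0.0519 for MCM2.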

How the results depend on the processing

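The number of tested members called in 30D minus 30U was 2, and it was 1 without a filter, 5 with a filter at the 60th percentile, 1 with every probe set tested, 1 with the parental population as a replicate block, 4 with centred arrays, 5 with an intensity trend, and 1 to 3 without each array in turn. In the difference between the lines in the D minus U change it was 2, and it was 1 without a filter, with every probe set, with the replicate block, with centred arrays and without any 1 array. In 180D minus 180U it was 0 under every alternative run, and between the lines 5 to 6. The direction turned only for differences that were not called: with centred arrays for RB1 in 30D minus 30U (-0.0045) and CDK2 in 180D minus 180U (-0.0368), and without 1 array for RB1 in 30D minus 30U (-0.015 to 0.0452 over the 8 fits), CCND3 (-0.0325 to 0.1748), CDK2 (-0.0253 to 0.0328) and CDKN2A (-0.2097 to 0.2055) in 180D minus 180U, CDKN2A in the difference between the lines in the D minus U change (-0.1114 to 0.3038), and CCND1 between the lines (-0.0132 to 0.0999). The causes were not tested. The block changed no other call of a member. A group of 2 arrays that loses 1 is assumed to vary like the other groups. Signals near the filter value limit what CCND2 and, in KYSE180, CDKN2B can show.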
